A study of Mus musculus with 17 samples.

Results

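The genes of sterol and fatty acid synthesis considered here are a list of 28, looked up in the array table by gene symbol. They were chosen by name from textbook knowledge of the pathways, with earlier results of these data known. They comprise enzymes of the mevalonate pathway and of the sterol branch, regulators and sterol transporters, and enzymes of fatty acid and glycerolipid synthesis. Of the 28, 27 were measured among the 19751 genes of the table, and Acat2 was not analysed here.

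Sterols are built from acetyl-CoA. The mevalonate pathway makes isoprenoid units, which are joined to squalene, and the sterol branch folds squalene into lanosterol and trims it to cholesterol. Transcription of these enzymes is driven by the sterol regulatory element binding proteins (SREBPs), which the Insig proteins hold back when cell sterols are high, while the liver X receptors (LXRs) raise exporters such as Abca1 when oxysterols accumulate. In the lung, alveolar type 2 cells make fatty acids and phospholipid for surfactant, and macrophages take up and export surfactant lipid and cholesterol.

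Lung RNA of 17 Balb/c mice was measured on Affymetrix Mouse Gene 1.0 ST arrays, with 1 array per mouse. The saline group (6 mice) was given saline at both sensitization and challenge. The isotype group (5 mice) was given ovalbumin (OVA) at both steps together with an isotype antibody, and the anti-RGMb group (6 mice) was given OVA at both steps together with a monoclonal antibody (aRGMB mAb in the labels) against RGMb, a membrane co-receptor for bone morphogenetic proteins that binds neogenin. Age and sex are not given in the sources used here, and all lungs were taken at 1 time point of the treatment. No antibody is named for the saline mice and no group had anti-RGMb without OVA, so OVA and isotype antibody cannot be told apart in the comparison with saline. The mice came from 2 experiments, with 3 mice a group in experiment 1 and 3 saline, 2 isotype and 3 anti-RGMb mice in experiment 2. Mice of experiment 1 are called 1, 2 and 3 and those of experiment 2 are called 1-2, 2-2 and 3-2.

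Array medians were 120.5 to 124.8 intensity units in experiment 1 and 362.1 to 386.2 in experiment 2, so levels are given below as log2 intensity minus the mean of the saline mice in the same experiment (relative log2 level). All 27 genes lay above the lower quartile of all genes in brightness. All 12 markers of alveolar type 2 epithelium did too, Sftpc (surfactant protein C) among them. In experiment 2 isotype mouse 2-2 had the widest spread of log2 values (interquartile range 3.34) and anti-RGMb mouse 3-2 the narrowest (2.83), and calls that change without either are given both ways. Whether the mice were independent beyond their separate arrays is not stated, and p-values measure the spread between these arrays. In whole lung, fewer cells of a type and less RNA per cell cannot be told apart.

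After OVA with isotype antibody, 7 of the 13 measured enzymes of sterol synthesis were lower than after saline and 2 were higher. In all, 12 of the 27 genes fell, namely Sc5d, Lss, Msmo1, Insig1, Idi1, Hmgcs1, Fdft1, Scd2, Mvk, Elovl1, Lpin1 and Srebf2, by 0.22 to 0.51 on the log2 scale. Abca1, Mvd and Dhcr7 rose, and 12 genes did not pass the threshold, set at a p under 0.05 from limma after Benjamini-Hochberg adjustment over every gene tested. Over all 19751 genes 21.0% were called lower and 14.6% higher, beside 44.4% and 11.1% of the 27. These shares are not matched for brightness, since 4586 of all genes lay in the lower quartile in both experiments and none of the 27 did. With the dimmest 40% of genes left out, 6294 genes were called higher or lower, a larger share of those left than of all genes. The 27 again gave 3 higher and 12 lower, so their share called in either direction was close to that of the genes left. The 6294 were not split by direction. These values therefore do not show whether the 27 were lower more often than the genes left. The median log2 difference of the 27 was -0.16, against -0.039 over all genes.

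In the mice given OVA with anti-RGMb, 7 of the 13 sterol enzymes were likewise below saline. Against saline, 10 of the 27 fell in the anti-RGMb group, namely Mvk, Idi1, Fdft1, Lss, Msmo1, Nsdhl, Sc5d, Srebf2, Insig1 and Scd2, and 0 rose in limma (1 higher and 18 lower at an unadjusted p under 0.05). Those 10 are 37.0% of the genes, where 2.24% of all genes were called lower and 4.26% higher. Every anti-RGMb mouse lay below every saline mouse in relative level for 10 genes, which are Hmgcs1 and the called genes other than Scd2. Over all genes this held for 2.66%. With the dimmest 40% of genes left out, 1504 genes were called against saline, again a larger share of those left, and 11 of the 27 were lower. The median difference of the 27 was -0.18, against -0.015 over all genes.

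Between the OVA groups few of the genes differed. With anti-RGMb, Sc5d was higher than with isotype antibody and Mvd, Dhcr7 and Abca1 were lower, and 23 genes did not pass. Of all genes 11.1% were called higher and 10.0% lower, so the shares of the 27 (3.70% and 11.1%) were below the first and near the second. Those shares are not matched for brightness either. With the dimmest 40% of genes left out, 4135 genes were called, again a larger share of those left. The 27 still gave 1 higher and 3 lower, so they were called less often than the genes left. The median difference was -0.0058, against 0.027 over all genes. The 3 comparisons share mice, since each group enters 2 of them, and each comparison's own values are set side by side below. Both antibodies were given with OVA, and "with isotype antibody" and "with anti-RGMb" stand for these groups.

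**Figure D1:**
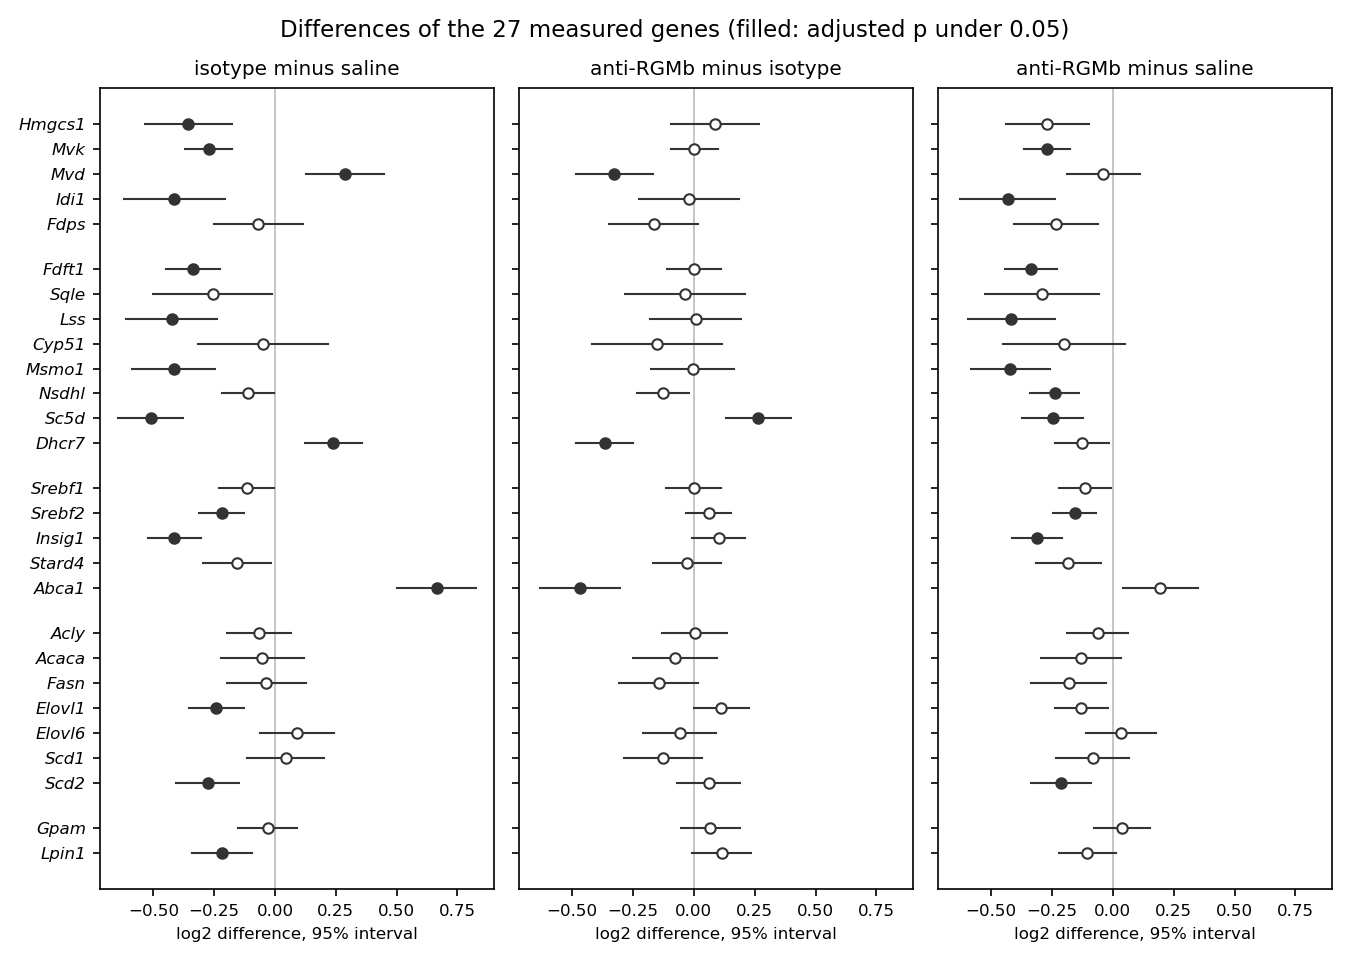
Log2 difference of each of the 27 measured genes (x axis, with 95% intervals) for each pair of groups, as named above the panels, with genes ordered by role on the y axis and filled points for an adjusted p under 0.05 in limma. Filled points lie left of 0 for 12 genes in the left panel and 10 in the right panel, and the middle panel has 4 filled points.

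The sequence before the start of 3 of these genes is shown because Hmgcs1 acts early in the pathway, Msmo1 was among the most lowered enzymes of the sterol branch, and Insig1 controls the pathway. Each is the 250 bases upstream of the start site, 5′ to 3′ on the gene's strand, from RefSeq on build GRCm38.p6. Capitals mark the core of a sterol regulatory element (TCACNCCAC), the CCAAT letters bound by NF-Y (ATTGG on the other strand) and the GGGCGG letters of a GC box (CCGCCC on the other strand). The windows lie at chr13:119690101-119690350 (plus strand), chr8:64733579-64733828 (minus strand) and chr5:28071162-28071411 (plus strand), in that order.
Hmgcs1: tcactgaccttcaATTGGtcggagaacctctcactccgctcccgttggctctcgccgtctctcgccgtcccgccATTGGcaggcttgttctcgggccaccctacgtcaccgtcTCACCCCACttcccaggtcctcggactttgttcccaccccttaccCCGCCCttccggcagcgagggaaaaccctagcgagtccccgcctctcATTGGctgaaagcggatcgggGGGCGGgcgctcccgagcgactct
Msmo1: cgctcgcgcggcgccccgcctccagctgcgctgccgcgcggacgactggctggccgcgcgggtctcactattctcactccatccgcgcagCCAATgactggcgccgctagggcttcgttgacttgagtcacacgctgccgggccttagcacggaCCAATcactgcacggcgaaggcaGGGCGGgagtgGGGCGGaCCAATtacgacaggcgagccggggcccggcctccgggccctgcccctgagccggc
Insig1: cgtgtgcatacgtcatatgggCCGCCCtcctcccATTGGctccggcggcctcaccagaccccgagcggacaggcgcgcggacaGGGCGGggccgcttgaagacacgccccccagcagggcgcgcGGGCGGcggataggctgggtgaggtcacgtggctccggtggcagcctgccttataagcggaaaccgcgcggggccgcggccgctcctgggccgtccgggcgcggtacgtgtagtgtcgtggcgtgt
Of these windows, only that of Hmgcs1 held the sterol element core, at bases 137 to 129 before the start, with 3 CCAAT and 2 GC box matches. Msmo1 had 3 CCAAT and 2 GC box matches, and Insig1 had 1 CCAAT and 3 GC box matches.

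Windows were at hand for 22 of the 28 genes (28 windows, as some genes have more than 1 start). Both strands were searched, and no matches overlapped in the windows shown. CCAAT was present in 17 of the 28 windows, that is 60.7%, against 33.8% of all 32851 windows of the same length. GGGCGG was present in 21 windows (75%, against 32.7%). The sterol element core was in 1 window (3.57%, against 1.05%). The E-box CACGTG, left in lower case above, was in 4 windows (14.3%, against 6.02%), those of Abca1, Dhcr7, Insig1 and Sc5d. A match describes letters in this window and is not a measured binding site.

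In the mevalonate pathway 3 of the 5 measured enzymes fell with OVA and isotype antibody (Hmgcs1, Mvk and Idi1), Mvd rose and Fdps did not pass. Mvk, mevalonate kinase, which phosphorylates mevalonate, had relative log2 levels of -0.05, -0.01 and 0.07 (lowest, median and highest) in the 6 saline mice. Its levels were -0.35, -0.26, -0.20, -0.26 and -0.29 in isotype mice 1, 2, 3, 1-2 and 2-2, and -0.39, -0.26 and -0.19 (lowest, median and highest) in the anti-RGMb mice. Every mouse of both OVA groups lay below every saline mouse, and the OVA groups overlapped throughout. Mvk fell by 0.27 ± 0.047 (log2 difference ± SE, adjusted p 0.000139) with isotype antibody and by 0.27 ± 0.044 (adjusted p 0.000718) with anti-RGMb. The difference between the OVA groups was 0.0020, with a 95% interval of -0.096 to 0.10, which leaves room for changes of up to about that size in either direction.

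Hmgcs1, cytosolic HMG-CoA synthase, which condenses acetyl-CoA units early in the pathway, was more uneven. Saline mice ranged from -0.05 to 0.09 with a median of -0.03. The isotype mice had -0.39, -0.33, -0.25, -0.71 and -0.09, and the anti-RGMb mice had -0.40, -0.29 and -0.13 as lowest, median and highest. Isotype mouse 1-2 was the lowest of all mice and isotype mouse 2-2 the highest of the OVA mice, and both OVA groups lay below the saline range. The fall with isotype antibody was 0.36 ± 0.085 on the log2 scale (-21.9%, adjusted p 0.0028). Anti-RGMb minus saline was -0.27 ± 0.081 and just missed the threshold (adjusted p 0.0555). It passed without isotype mouse 1-2 (-0.27, adjusted p 0.00898), without isotype mouse 2-2 (-0.27, adjusted p 0.0195) and without anti-RGMb mouse 3-2 (-0.30, adjusted p 0.043). It also passed with arrays shifted to a common median (adjusted p 0.0259), without dim genes (0.0348), with a variance trend (0.0431) and with saline and anti-RGMb mice alone (0.00634). It did not pass when any other single mouse was left out. Within experiments 1 and 2 it was -0.26 and -0.28 and passed in neither (limma adjusted p 0.371 and 0.283). Anti-RGMb minus isotype was 0.087 (95% interval -0.093 to 0.27), or 0.17 (adjusted p 0.15) without isotype mouse 2-2.

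Idi1, the isomerase that turns isopentenyl into dimethylallyl pyrophosphate, followed the same course. Levels were -0.10, 0.0036 and 0.08 in saline (lowest, median and highest), -0.42, -0.44, -0.27, -0.78 and -0.17 in isotype mice, and -0.68, -0.40 and -0.24 with anti-RGMb. No OVA mouse reached the saline range. Idi1 fell by 0.41 ± 0.098 (-24.9%, adjusted p 0.0027) with isotype antibody and by 0.43 ± 0.093 (-25.9%, adjusted p 0.00733) with anti-RGMb. The 2 OVA groups differed by -0.020 (95% interval -0.23 to 0.19). Another probe set of Idi1 gave -0.30 for isotype minus saline.

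Mvd, mevalonate diphosphate decarboxylase, went the other way. Its levels were -0.06, -0.0024 and 0.07 in saline, 0.21, 0.30, 0.07, 0.27 and 0.55 in the isotype mice, and -0.25, 0.01 and 0.11 with anti-RGMb. All isotype mice lay above the saline range, mouse 3 only just, and the anti-RGMb mice overlapped both groups. Mvd rose by 0.29 ± 0.076 (22.1%, adjusted p 0.00578) with isotype antibody, and with anti-RGMb it was lower than with isotype antibody by 0.33 ± 0.076 (difference -0.33, -20.3%, adjusted p 0.00452). Anti-RGMb minus saline was -0.039 (95% interval -0.19 to 0.11). Without isotype mouse 2-2, the highest, the rise was 0.22 (adjusted p 0.0236) and the difference between the OVA groups -0.26 (adjusted p 0.0168). Fdps, which makes farnesyl pyrophosphate, gave -0.068 (95% interval -0.25 to 0.11) for isotype minus saline, and isotype mice ranged from -0.30 to 0.26. Without isotype mouse 2-2 that difference was -0.14 (adjusted p 0.245). For Fdps anti-RGMb minus saline was -0.23 (adjusted p 0.108), and it was called without isotype mouse 2-2 and anti-RGMb mouse 3-2 together (-0.28, adjusted p 0.024).

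**Figure D2:**
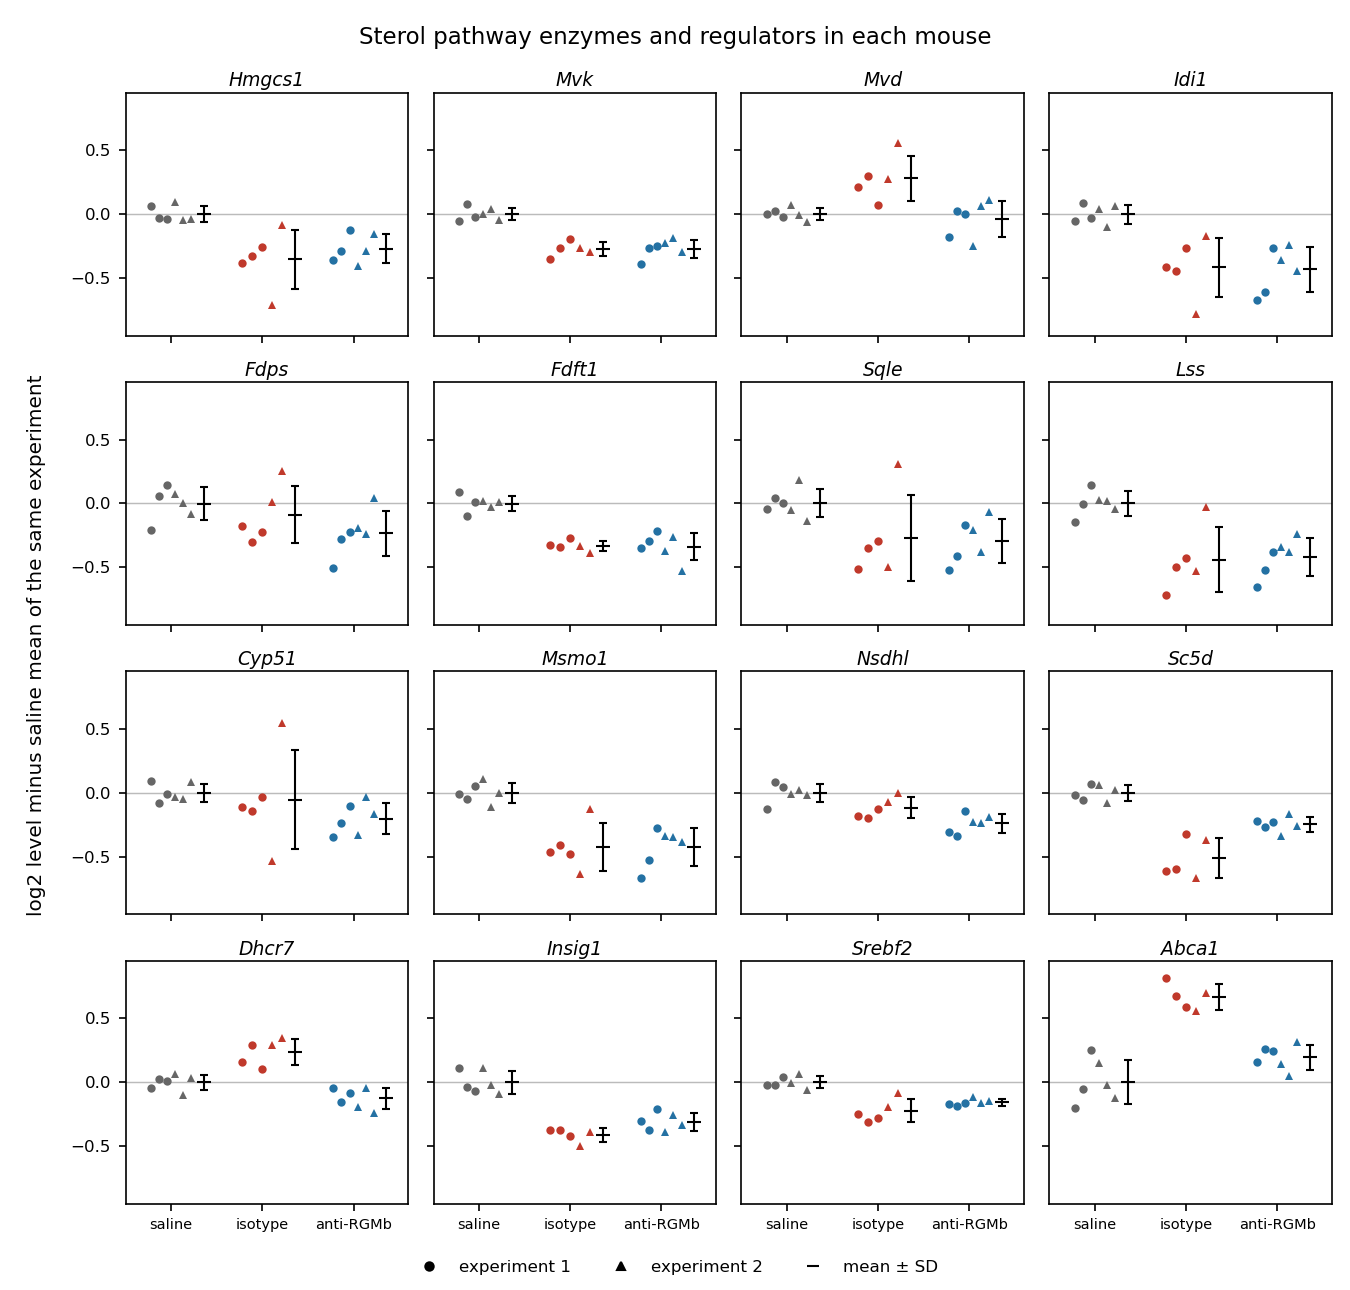
Relative log2 level (y axis, log2 intensity minus the saline mean of the same experiment) of 16 sterol pathway enzymes and regulators in each mouse of the saline, isotype and anti-RGMb groups (x axis), with circles for experiment 1, triangles for experiment 2 and bars for mean ± SD. Mvk, Fdft1 and Insig1 were low in every OVA mouse, Mvd, Dhcr7 and Abca1 were high in the isotype mice, and isotype mouse 2-2 stood above the rest of its group for Sqle, Lss and Cyp51.

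In the sterol branch 4 of the 8 enzymes fell with isotype antibody (Fdft1, Lss, Msmo1 and Sc5d) and Dhcr7 rose, and 5 fell with anti-RGMb against saline, with Nsdhl added. Fdft1, squalene synthase, joins farnesyl units and commits them to sterols. It was even within groups. Saline mice had -0.10, 0.0095 and 0.09 (lowest, median and highest), isotype mice -0.33, -0.34, -0.27, -0.34 and -0.39, and anti-RGMb mice -0.53, -0.32 and -0.22. All OVA mice lay below all saline mice. Fdft1 fell by 0.34 ± 0.052 (-20.8%, adjusted p 5.46e-05) and by 0.34 ± 0.050 (-20.8%, adjusted p 0.000254) in the 2 OVA groups. The difference between them was 0.00055 (95% interval -0.11 to 0.11). Another probe set gave -0.39 for isotype minus saline.

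Squalene is oxidised by Sqle, squalene epoxidase, and cyclised to lanosterol by Lss. Sqle had -0.14, -0.02 and 0.19 in saline, -0.52, -0.35, -0.29, -0.50 and 0.31 in the isotype mice, and -0.52, -0.29 and -0.07 with anti-RGMb. Isotype mouse 2-2 lay above every saline mouse while the other 4 lay below all of them. Sqle therefore did not pass (isotype minus saline -0.26, 95% interval -0.50 to -0.010, adjusted p 0.103), and without mouse 2-2 it did (-0.40, adjusted p 0.00156). Anti-RGMb minus saline was -0.29 with adjusted p 0.136, or 0.0264 without that isotype mouse. Lss showed the same mouse apart from its group. Its isotype levels were -0.72, -0.50, -0.43, -0.53 and -0.03, against -0.15, 0.0096 and 0.15 in saline and -0.65, -0.38 and -0.24 with anti-RGMb. Lss fell by 0.42 ± 0.089 (-25.5%, adjusted p 0.000969) with isotype antibody, or by 0.52 (adjusted p 4.57e-05) without mouse 2-2. With anti-RGMb it fell by 0.42 ± 0.085 (-25.2%, adjusted p 0.00454), and every anti-RGMb mouse lay below the saline range. The OVA groups differed by 0.0068 (95% interval -0.18 to 0.20), or by 0.10 (adjusted p 0.437) without mouse 2-2.

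Cyp51 and Msmo1 remove methyl groups from lanosterol and its products, and Nsdhl works in the same steps. Cyp51 was the most scattered of the 27 genes in isotype mice, at -0.11, -0.15, -0.03, -0.53 and 0.54, so its difference of -0.049 had a 95% interval of -0.31 to 0.22. Without isotype mouse 2-2 it was -0.22 (adjusted p 0.0616). For Cyp51, anti-RGMb minus isotype was -0.15 (adjusted p 0.448), and it was called without isotype mouse 1-2 (-0.30, adjusted p 0.0463). Msmo1 was clearer. It had -0.11, -0.0032 and 0.11 in saline, -0.46, -0.41, -0.48, -0.63 and -0.13 in isotype mice, and -0.67, -0.37 and -0.27 with anti-RGMb. No OVA mouse overlapped saline. Msmo1 fell by 0.42 ± 0.081 (-25.1%, adjusted p 0.000493) and by 0.42 ± 0.077 (-25.4%, adjusted p 0.00192), and the OVA groups differed by -0.0058 (95% interval -0.18 to 0.16).

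Nsdhl, a sterol dehydrogenase, was called in the anti-RGMb group only when set against saline. Isotype mice ranged from -0.20 to 0.00059 with a median of -0.13, and saline mice from -0.13 to 0.08. Anti-RGMb mice had -0.34, -0.23 and -0.14, all below saline. The difference from saline was -0.24 ± 0.048 (adjusted p 0.00444) with anti-RGMb and -0.11 ± 0.051 (adjusted p 0.104) with isotype antibody, the latter called without isotype mouse 2-2 and anti-RGMb mouse 3-2 together (-0.14, adjusted p 0.0487). The difference between the OVA groups was -0.13 (adjusted p 0.086), and it was called without anti-RGMb mouse 3 (-0.16, adjusted p 0.0409). Nsdhl is therefore not shown to be lower with anti-RGMb than with isotype antibody.

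The late enzymes Sc5d and Dhcr7 act next to each other, with Sc5d placing the double bond that Dhcr7's substrate carries, and with isotype antibody they moved in opposite directions. Sc5d had -0.08, 0.0049 and 0.07 in saline, -0.61, -0.59, -0.32, -0.66 and -0.37 in isotype mice, and -0.33, -0.25 and -0.16 with anti-RGMb. Both OVA groups lay below saline, and only the highest isotype mouse (mouse 3, -0.32) overlapped the lowest anti-RGMb mouse (-0.33). Sc5d fell by 0.51 ± 0.063 (-29.8%, adjusted p 4.45e-06) with isotype antibody and by 0.25 ± 0.060 (-15.7%, adjusted p 0.0166) with anti-RGMb. It was 0.26 ± 0.063 higher (20.1%, adjusted p 0.00535) with anti-RGMb than with isotype antibody.

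Dhcr7, which makes cholesterol from 7-dehydrocholesterol, had -0.10, 0.02 and 0.06 in saline, 0.16, 0.29, 0.11, 0.30 and 0.35 in isotype mice, and -0.24, -0.12 and -0.04 with anti-RGMb. The isotype mice lay above both other groups without overlap, while saline and anti-RGMb mice overlapped. Dhcr7 rose by 0.24 ± 0.056 (18.1%, adjusted p 0.00215) with isotype antibody. The anti-RGMb group was lower than the isotype group by -0.37 ± 0.056 on the log2 scale (-22.4%, adjusted p 0.000151). Against saline it was -0.13 (95% interval -0.24 to -0.015, adjusted p 0.186), which missed the threshold.

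As a description of the pathway in each mouse, the relative levels of the 13 enzymes from Hmgcs1 to Dhcr7 were averaged. The saline mice lay between -0.034 and 0.036. Of the isotype mice 4 lay between -0.341 and -0.209 and mouse 2-2 at 0.042, just above the highest saline mouse. The anti-RGMb mice lay between -0.402 and -0.19, all below saline. Mouse 2-2 was low for Mvk, Fdft1, Sc5d and Insig1 like its group, and high or near saline for Sqle, Cyp51 and Lss. It was also the highest isotype mouse for Mvd (0.55) and Dhcr7 (0.35), which rose in its group and enter the mean of the 13 enzymes. Without isotype mouse 2-2 and anti-RGMb mouse 3-2, an alternative chosen after seeing the data, 14 of the 27 genes were lower and 3 higher with isotype antibody, and 13 were lower with anti-RGMb against saline. Between the OVA groups the counts were again 1 higher and 3 lower. Without mouse 2-2 alone, the uncalled difference between the OVA groups changed sign for Idi1 (0.048), Sqle (0.11), Cyp51 (0.019), Msmo1 (0.071), Mvk (-0.008) and Fdft1 (-0.007), and none of these passed (adjusted p 0.477 to 0.97).

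**Figure D3:**
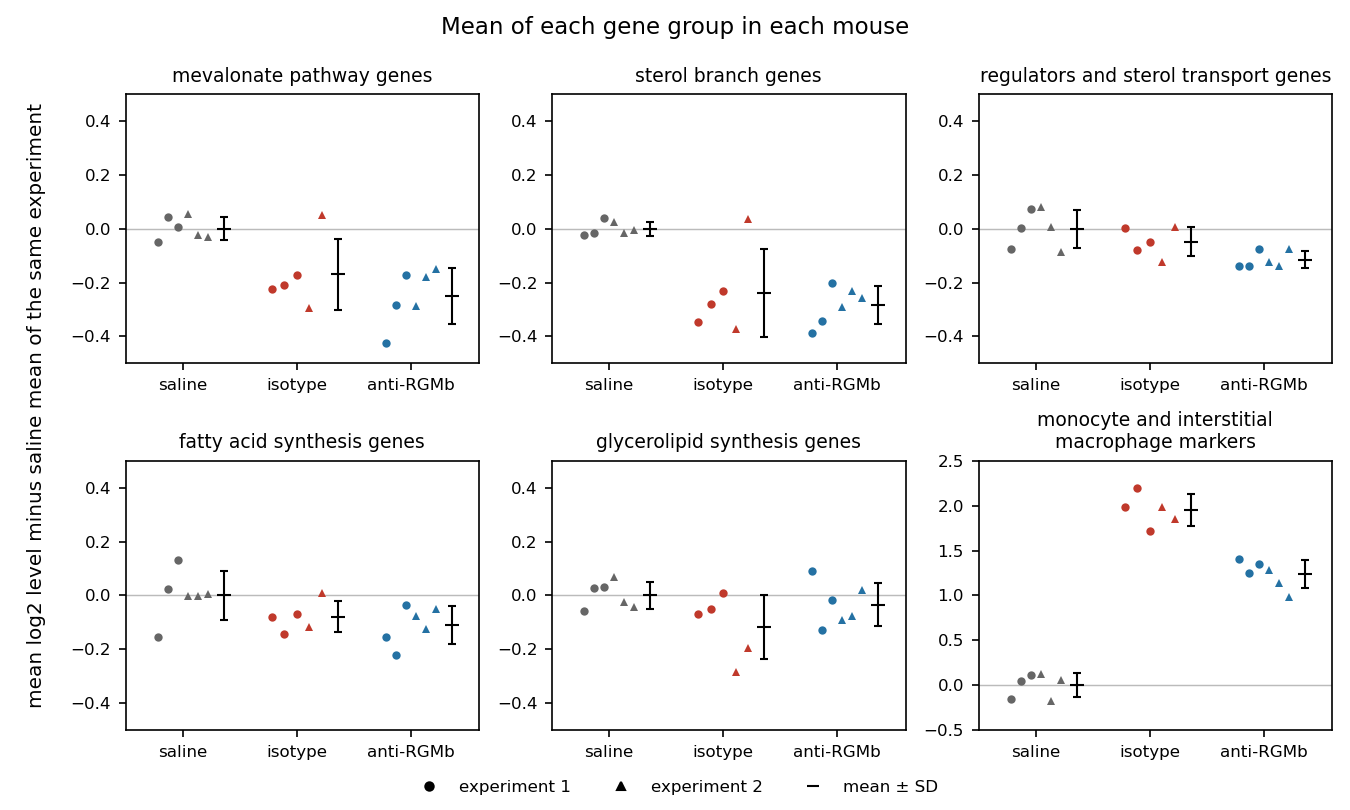
Mean relative log2 level (y axis) in each mouse (x axis, by group) of the measured genes of each role and, on a wider y axis at the lower right, of 10 monocyte and interstitial macrophage markers, with circles for experiment 1, triangles for experiment 2 and bars for mean ± SD. The mevalonate and sterol branch means of the anti-RGMb mice lie below all saline mice, isotype mouse 2-2 lies at 0.052 and 0.036 in those panels, and the macrophage markers lie at 1.721 to 2.194 in isotype mice and 0.977 to 1.408 in anti-RGMb mice.

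Among the 5 regulators and transporters, Insig1 and Srebf2 fell in both OVA groups and Abca1 rose with isotype antibody. Insig1, an endoplasmic reticulum protein that retains SREBPs and is itself a well-known SREBP target, was even across mice. It had -0.09, -0.03 and 0.11 in saline, -0.37, -0.38, -0.42, -0.50 and -0.39 in isotype mice, and -0.39, -0.32 and -0.21 with anti-RGMb. No OVA mouse overlapped saline. Insig1 fell by 0.41 ± 0.052 (-24.9%, adjusted p 5.04e-06) with isotype antibody and by 0.31 ± 0.049 (-19.4%, adjusted p 0.000471) with anti-RGMb. Anti-RGMb minus isotype was 0.10 (95% interval -0.0067 to 0.21, adjusted p 0.189).

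Srebf2 encodes the SREBP best known for sterol genes. Its levels were -0.06, -0.01 and 0.07 in saline, -0.25, -0.31, -0.28, -0.19 and -0.08 in isotype mice, and -0.19, -0.16 and -0.11 with anti-RGMb. The groups given OVA lay below saline, by little in isotype mouse 2-2. Srebf2 fell by 0.22 ± 0.044 (-14.0%, adjusted p 0.000634) with isotype antibody and by 0.16 ± 0.042 (-10.4%, adjusted p 0.0282) with anti-RGMb. The second call was close to the threshold, and it was lost without saline mouse 2, 3 or 2-2 or anti-RGMb mouse 2, 3 or 2-2 (adjusted p 0.0503 to 0.0732). Srebf1, whose products act more on fatty acid genes, gave -0.12 in both comparisons with saline (adjusted p 0.109 and 0.212). It was called for isotype minus saline without saline mouse 1 (-0.16, adjusted p 0.0195).

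Stard4 carries sterol between membranes. It gave -0.16 ± 0.066 (adjusted p 0.0779) with isotype antibody, and it was called without isotype mouse 3 (-0.19, adjusted p 0.0369). With anti-RGMb its difference from saline was -0.18 (adjusted p 0.0982).

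Abca1, which exports cholesterol to lipoproteins and is a textbook LXR target, had the widest change of the 27 genes. Saline mice ranged from -0.20 to 0.25 with a median of -0.04. The isotype mice had 0.82, 0.68, 0.59, 0.56 and 0.70, and the anti-RGMb mice had 0.05, 0.20 and 0.32 as lowest, median and highest. The isotype mice stood above both other groups, which overlapped each other. Abca1 rose by 0.66 ± 0.078 (58.4%, adjusted p 2.51e-06) with isotype antibody, and with anti-RGMb it was lower than that by -0.47 ± 0.078 on the log2 scale (-27.7%, adjusted p 0.000315). Against saline the anti-RGMb group gave 0.20 (95% interval 0.040 to 0.35, adjusted p 0.134), called only without saline mouse 3 (0.25, adjusted p 0.0478).

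Of the 7 enzymes of fatty acid synthesis, Elovl1 and Scd2 fell with isotype antibody, and Acly, Acaca, Fasn, Elovl6 and Scd1 did not pass in any comparison. Scd2, a stearoyl-CoA desaturase, had -0.19, 0.03 and 0.10 in saline, -0.18, -0.28, -0.16, -0.35 and -0.40 in isotype mice, and -0.28, -0.22 and -0.14 with anti-RGMb. Only the lowest saline mouse reached the range of the OVA mice. Scd2 fell by 0.28 ± 0.061 (-17.4%, adjusted p 0.00157) with isotype antibody and by 0.21 ± 0.058 (-13.8%, adjusted p 0.0338) with anti-RGMb. The second call was lost without saline mouse 2, 3, 1-2 or 3-2 or anti-RGMb mouse 1, 2 or 3 (adjusted p 0.0683 to 0.0888).

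Scd1, the paralogous desaturase, showed no such shift. Its levels were -0.22, 0.01 and 0.12 in saline, 0.23, -0.03, 0.20, -0.06 and -0.09 in isotype mice, and -0.27, -0.07 and 0.04 with anti-RGMb. All groups overlapped. Isotype minus saline was 0.044 (95% interval -0.12 to 0.20), or 0.074 without isotype mouse 2-2, and anti-RGMb minus isotype -0.13 (95% interval -0.29 to 0.032). Whether Scd1 and Scd2 differed in their change was not tested.

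Elovl1, which elongates long saturated chains, had -0.11, 0.01 and 0.10 in saline, -0.32, -0.25, -0.20, -0.20 and -0.25 in isotype mice, and -0.29, -0.12 and -0.0091 with anti-RGMb. All isotype mice lay below saline, and anti-RGMb mice overlapped both groups. Elovl1 fell by 0.24 ± 0.054 (-15.4%, adjusted p 0.00162) with isotype antibody. Anti-RGMb minus saline was -0.13 (adjusted p 0.157) and anti-RGMb minus isotype 0.11 (adjusted p 0.165).

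The core enzymes of the pathway were not called against saline in either OVA group. Fasn, fatty acid synthase, had -0.03, -0.16, -0.21, -0.01 and 0.17 in isotype mice, within or near the saline range of -0.13 to 0.22. Its isotype minus saline difference was -0.037 (95% interval -0.20 to 0.13) and its anti-RGMb minus saline difference -0.18 (95% interval -0.34 to -0.027, adjusted p 0.168). Without isotype mouse 2-2 the former was -0.084 (adjusted p 0.491). For Acly, which makes cytosolic acetyl-CoA from citrate, isotype minus saline was -0.065 (95% interval -0.20 to 0.067). For Acaca, acetyl-CoA carboxylase, it was -0.052 (95% interval -0.22 to 0.12), or -0.13 (adjusted p 0.218) without mouse 2-2, and another probe set gave -0.11. Anti-RGMb minus saline for Acaca was -0.13 (95% interval -0.29 to 0.032). Elovl6, which elongates palmitate, gave 0.091 (95% interval -0.060 to 0.24), or 0.033 (adjusted p 0.788) without mouse 2-2. In glycerolipid synthesis, Lpin1, a phosphatidate phosphatase, fell with isotype antibody and Gpam, the mitochondrial acyltransferase of the opening step, did not pass in any comparison. Lpin1 levels were -0.09, -0.01 and 0.12 in saline, -0.18, -0.10, -0.09, -0.39 and -0.31 in isotype mice, and -0.17, -0.12 and 0.01 with anti-RGMb. All isotype mice lay below the saline range, mice 2 and 3 only just and mice 1-2 and 2-2 by the most, and the anti-RGMb mice overlapped both groups. Lpin1 fell by 0.22 ± 0.058 (-14.1%, adjusted p 0.00614) with isotype antibody, and anti-RGMb minus isotype was 0.11 (adjusted p 0.194). The experiments were uneven for Lpin1. Isotype minus saline was -0.12 (adjusted p 0.27) in experiment 1 and -0.35 (adjusted p 0.00205) in experiment 2, and anti-RGMb minus isotype was 0.0064 (adjusted p 0.99) and 0.26 (adjusted p 0.0261). The differences between the experiments themselves did not pass (limma p 0.04 and 0.027, adjusted 0.456 and 0.363).

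Within each experiment the direction of every called difference was the same: 15 of 15 for isotype minus saline, 4 of 4 for anti-RGMb minus isotype and 10 of 10 for anti-RGMb minus saline. These differences were called on both experiments together, so their agreement was largely set by the calls and is no separate test. Of all 27 genes, called or not, 21, 15 and 25 had the same direction in both experiments. The same count was not made over all genes. With fewer mice, not all called differences passed within each experiment. For isotype minus saline, 8 genes were lower and 1 higher in experiment 1, and 9 lower and 3 higher in experiment 2. Of all 19751 genes, 4025 and 5838 were called, higher or lower, with each experiment alone. Mvk, Fdft1, Msmo1, Sc5d, Insig1 and Abca1 were called in both. For anti-RGMb minus saline 7 and 2 genes were lower, beside 763 and 653 of all genes called higher or lower. Fdft1 and Insig1 were called in both. Between the OVA groups Dhcr7 and Abca1 were called in both experiments, Mvd only in experiment 2 (-0.44, adjusted p 0.0104, beside -0.24, adjusted p 0.189) and Sc5d in neither (0.27 and 0.26, adjusted p 0.0936 and 0.0807). A difference between the experiments was called for 0 of the 27 genes in each comparison in limma, with 3, 2 and 0 genes at an unadjusted p under 0.05. Over all genes 0.668%, 0.471% and 0% differed between experiments in the 3 comparisons.

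Other genes of the same pathways were read from lists. Of 7 further sterol synthesis enzymes, 2 fell and 1 rose with isotype antibody (28.6% and 14.3%, near the 21.0% and 14.6% of all genes). Hsd17b7, a ketosteroid reductase of the sterol branch, fell by 0.54 ± 0.089 (adjusted p 9.6e-05) and by 0.36 ± 0.084 (adjusted p 0.0142) with anti-RGMb against saline. Ggps1, which makes geranylgeranyl pyrophosphate, fell by 0.39 ± 0.083 (adjusted p 0.00119) with isotype antibody. Ebp, the sterol isomerase before Sc5d, rose by 0.17 ± 0.061 (adjusted p 0.0396), and with anti-RGMb it was below isotype at -0.20 ± 0.061 (adjusted p 0.0262). Of 10 genes of SREBP processing and LXR signalling, 3 fell and 1 rose with isotype antibody (30% and 10%, also near the shares of all genes). Scap, the SREBP escort, fell by 0.13 ± 0.041 (adjusted p 0.0209) and Insig2 by 0.19 ± 0.057 (adjusted p 0.0135). Lpcat3, a phospholipid acyltransferase controlled by LXR, rose by 0.23 ± 0.048 (adjusted p 0.00098), and the anti-RGMb group lay below isotype at -0.20 ± 0.048 (adjusted p 0.00609). That order of groups was the one seen for Abca1, but not for all of the list. Mylip gave -0.12 (adjusted p 0.128) for isotype minus saline and -0.18 (adjusted p 0.0501) for anti-RGMb minus saline.

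Other fatty acid genes were lower in part with isotype antibody. Of 23, 11 fell (47.8%, beside 21.0% of all genes) and 2 rose (8.7%, beside 14.6%) with isotype antibody. With anti-RGMb, 6 were higher (26.1%, beside 11.1%) and 2 lower (8.7%, beside 10.0%) than with isotype antibody. Against saline, 1 rose and 1 fell with anti-RGMb (4.35% each, beside 4.26% and 2.24% of all genes). Hacd4, of the smallest p, rose by 0.93 ± 0.077 (adjusted p 4.4e-08) with isotype antibody and by 0.45 ± 0.073 (adjusted p 0.000762) with anti-RGMb. Me1 rose by 0.48 ± 0.085 (adjusted p 0.0002) with isotype antibody. Fads3 fell by 0.46 ± 0.063 (adjusted p 1.4e-05) and was 0.26 ± 0.063 higher (adjusted p 0.00552) with anti-RGMb than with isotype antibody. Mlxipl, the carbohydrate-responsive regulator ChREBP, fell by 0.38 ± 0.062 (adjusted p 8.4e-05) and was 0.36 ± 0.062 higher (adjusted p 0.000419) with anti-RGMb than with isotype antibody. Elovl5, which elongates polyunsaturated chains, fell by 0.33 ± 0.054 (adjusted p 0.000107) and was 0.20 ± 0.054 higher (adjusted p 0.0139) with anti-RGMb. Of 18 further glycerolipid genes, 6 fell (33.3%, beside 21.0% of all genes) and 1 rose (5.56%, beside 14.6%) with isotype antibody. With anti-RGMb, 4 were higher (22.2%, beside 11.1%) and 1 lower (5.56%, beside 10.0%) than with isotype antibody. Chpt1, a choline phosphotransferase, fell by 0.52 ± 0.066 (adjusted p 5.31e-06) and was 0.35 ± 0.066 higher (adjusted p 0.000966) with anti-RGMb.

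Most genes of a list for cholesterol uptake, transfer and efflux were higher in the isotype group than in saline. Soat1, the list's esterification gene, was not measured. Of 19, 12 rose (63.2%, beside 14.6% of all genes) and 1 fell (5.26%, beside 21.0%) with isotype antibody. With anti-RGMb, 9 were lower than with isotype antibody (47.4%, beside 10.0%), and 5 rose against saline (26.3%, beside 4.26%). Ch25h, which makes the oxysterol 25-hydroxycholesterol, rose by 2.40 ± 0.14 (adjusted p 7.12e-10) and by 1.19 ± 0.13 (adjusted p 1.31e-05) with anti-RGMb. Lipa, the lysosomal acid lipase, rose by 0.67 ± 0.070 (adjusted p 6.9e-07) with isotype antibody and by 0.29 ± 0.066 (adjusted p 0.0117) with anti-RGMb. Msr1, a macrophage scavenger receptor, rose by 2.12 ± 0.16 (adjusted p 9.79e-09) and by 1.64 ± 0.15 (adjusted p 1.12e-06). The list's median difference was 0.34 for isotype and 0.11 for anti-RGMb against saline, and -0.15 between the OVA groups. For the 13 sterol enzymes the corresponding medians were -0.27, -0.27 and -0.020.

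**Figure D4:**
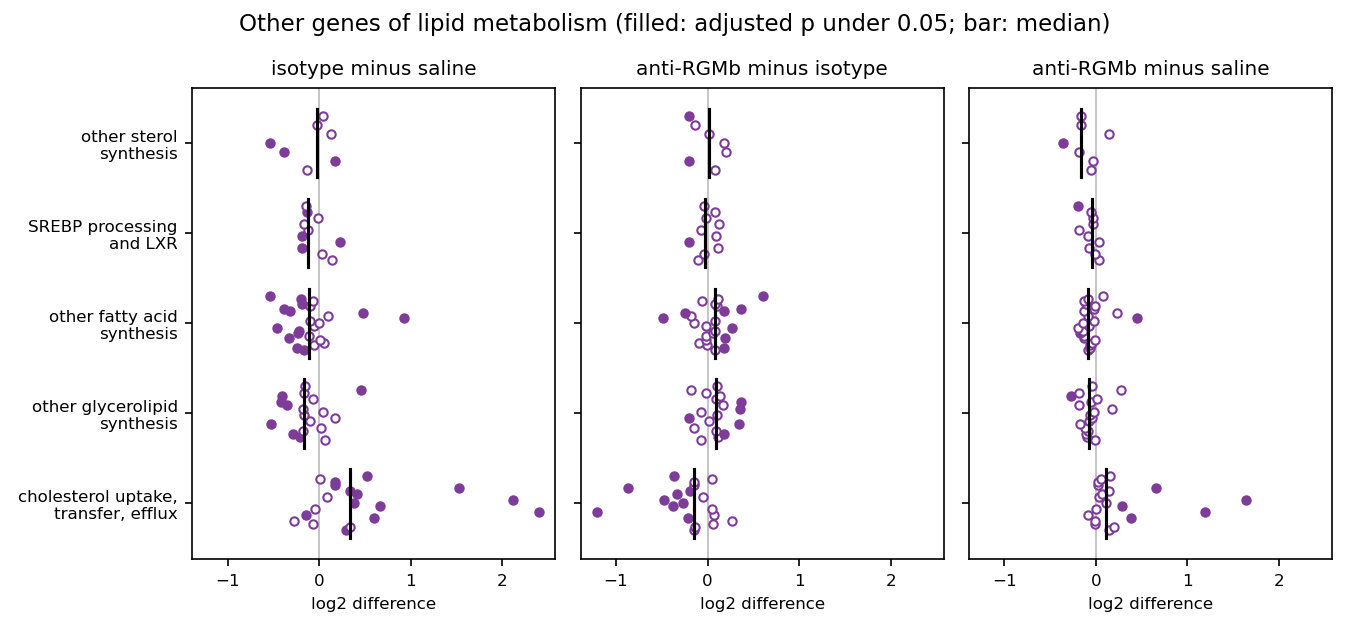
Log2 difference (x axis) of each measured gene in 5 lists of related lipid genes (y axis) for the 3 comparisons, with filled points for an adjusted p under 0.05 in limma and a bar at each list's median. Of the uptake and efflux genes, 15 of 19 lie right of 0 in isotype minus saline and 14 lie left of 0 in anti-RGMb minus isotype; of the 23 fatty acid genes 17 lie left of 0 in the former and 13 right of 0 in the latter, where 11493 of all 19751 genes lie right of 0.

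Markers of other cells moved with the groups too. As the mean relative log2 level of a list in each mouse, 7 eosinophil markers lay at 2.586 to 3.225 in isotype and 1.143 to 2.386 in anti-RGMb mice, and 11 proliferation genes at 1.529 to 2.371 and 0.869 to 1.093. The 10 monocyte and interstitial macrophage markers lay at 1.721 to 2.194 and 0.977 to 1.408. In each OVA group 9 of them rose against saline (90%, beside 14.6% and 4.26% of all genes). The 10 alveolar macrophage markers lay at 0.787 to 0.962 and 0.455 to 0.826, but they did not move as 1. With isotype antibody 6 of them rose (60%, beside 14.6% of all genes) and 2 fell (20%, beside 21.0%). Those that fell were Fabp1 (-1.69) and Car4 (-0.18), and the largest rise was that of Chil3 (3.96). The 7 T cell markers lay at 0.517 to 0.985 and -0.008 to 0.761. All these marker means were above the saline range in every isotype mouse.

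Tissue cell markers were lower or mixed. The 12 markers of alveolar type 2 cells lay at -0.074 to 0.066 in saline, -0.163 to -0.069 in isotype and -0.144 to 0.077 in anti-RGMb mice. Of those 12, 7 fell (58.3%, beside 21.0% of all genes) and 2 rose (16.7%, beside 14.6%) with isotype antibody. Against saline, 1 rose (8.33%, beside 4.26%) with anti-RGMb. The 8 endothelial markers lay at -0.589 to -0.244 in isotype and -0.238 to -0.051 in anti-RGMb mice. Against saline, 7 of them fell (87.5%, beside 21.0% of all genes) and 1 rose with isotype antibody, and 2 fell (25%, beside 2.24%) with anti-RGMb. The 8 fibroblast markers lay at -0.496 to 0.043 and -0.104 to 0.319, the 9 club and goblet cell markers at 0.274 to 1.918 and 0.785 to 1.759, and the 8 adipocyte markers at -0.468 to -0.14 and -0.111 to 0.528, with 4 adipocyte markers below the lower quartile of brightness, Adipoq among them. The club and goblet list was split with isotype antibody, as 5 rose (55.6%, beside 14.6% of all genes) and 3 fell (33.3%, beside 21.0%). Clca1 rose the most (5.37), and Scgb3a2 (-1.52), Cyp2f2 (-0.71) and Scgb1a1 (-0.15) fell. Fibroblast markers were split too, with 3 higher (37.5%) and 4 lower (50%) against saline. The part of these cell markers in the levels of the sterol and fatty acid genes was not tested.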

How the data were processed

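Lung RNA of 17 mice was measured on 1 array each. The deposited values are probe set intensity on a linear scale, made by the authors with RMA per the submitters' processing notes (RMA version not given in the sources used here); array levels differ by experiment. Of 24679 probe sets, 21354 had 1 gene symbol, 1275 several and 2050 none. Only single-symbol probe sets entered, with the brightest standing for each of 893 genes that had several, and 19751 genes resulted.

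The log2 of each intensity was fitted with limma 3.58.1 in R 4.3.3, with a mean per group and the experiment as a fixed term (residual degrees of freedom 13, prior 4.32). Tests were 2-sided, p-values were adjusted by Benjamini-Hochberg over the 19751 genes with 0.05 as the threshold, and ± is the SE unless SD is written. The fit was tested on simulated data. Intervals are 95% and unadjusted.

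The members and lists were chosen with earlier results of these data known. All 27 measured members are named, and from each further list up to 6 called genes per comparison, by smallest p, may be. Alternatives were no experiment term, each experiment alone, 2 groups at a time, array-median and quantile scaling, a dim-gene filter, other probe sets, a variance trend, a stricter threshold, a mouse-number block and leaving out each mouse. Same-numbered mice of different groups were not paired: of 16 pairs 3 correlated above 0.1.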

Additional observations from a re-analysis of the deposited data

Results flagged for a closer look

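Of 81 gene-by-group sets of 5 or 6 mice checked for a mouse far from the rest, 1 stood out. Chance gives about 1 in 20 sets, so 1 of 81 is not more than chance gives. Sqle in isotype mouse 2-2 had a relative log2 level of 0.31, while the other 4 isotype mice lay between -0.52 and -0.29. The gap to the nearest mouse was 0.727 of the group's range. This array also had the widest spread of log2 values in experiment 2, and its part in the level of Sqle was not tested.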

How the results depend on the processing

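Of the log2 differences of single members under the alternatives, 2253 kept their side of the threshold, 70 lost their call, 26 gained one and 0 called differences reversed. Of the 2253, 81 changed sign, all of differences not called. Without the experiment term (no replicate block), 0 members were called in any comparison, and 35, 0 and 10 genes in all for isotype against saline, anti-RGMb against isotype and anti-RGMb against saline, since the experiments differ in level. With quantile scaling, 2 members were higher with anti-RGMb than isotype, Elovl1 being added. With saline and anti-RGMb mice alone, 2009 genes were called, 13 members lower among them. In experiment 1 alone 1 member was higher and 8 lower for isotype minus saline (4025 genes called), 0 were higher for anti-RGMb minus isotype (1279 genes), and 763 genes were called for anti-RGMb minus saline; in experiment 2 alone 2 members were lower for the last (653 genes). At adjusted p under 0.01, 2631 and 670 genes were called for anti-RGMb minus isotype and minus saline, with 7 members lower in the latter. Leaving out 1 mouse in turn, isotype minus saline gave 3 higher and 12 to 13 lower members (6458 to 7358 genes), anti-RGMb minus isotype 1 higher and 3 to 4 lower (3581 to 4466 genes), and anti-RGMb minus saline 0 to 1 higher and 8 to 12 lower (913 to 1540 genes). With the mouse number as a replicate block, the member counts were 3 higher and 12 lower, 1 and 3, and 0 and 8, with Srebf2 (adjusted p 0.0704) and Scd2 (0.0764) lost from the last, and 6196, 3358 and 944 genes in all; same-numbered mice correlated at -0.6 to 0.297. Precision is limited by how many arrays were run, and the causes of these changes were not tested.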
